A study of Rattus norvegicus with 40 samples.

Results

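Gene expression in the rat cerebral cortex was compared between 5 arrays from the hypoxic preconditioning group, described in the labels as PC1 to PC5, and 5 arrays from the sham group, Sham 1 to Sham 5. These 10 arrays were taken by their labels from 40 Affymetrix expression arrays, which hold 20 samples of each group numbered 1 to 20. Preconditioned samples came from rats given a hypoxic preconditioning treatment, and sham samples from rats given the same kind of incubation in normal oxygen. All were total RNA from cerebral cortex. The sources used here do not give the oxygen level, how long the exposure lasted, when samples were taken, or the strain, age and sex of the rats. Nor do they state whether each sample came from a separate animal, so part of the spread that the p-values below rest on may be technical.

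Hypoxic preconditioning is a sublethal exposure to low oxygen after which the brain tolerates a later severe insult better. Under low oxygen the prolyl hydroxylases that mark the transcription factor subunit HIF-1α for destruction lose activity, and the stabilised factor switches on genes of glucose uptake, glycolysis and vessel growth. Cortical neurons, astrocytes and the endothelial cells of the blood-brain barrier all carry this system. The array reports a mixture of these cells, in which fewer cells of a type and less RNA per cell cannot be told apart.

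The core letters of the HIF binding site are ACGTG or GCGTG. To show what such letters look like in genes of both directions, the 200 bases before the annotated start are given for 3 genes that were higher after preconditioning and for Jag1, which was lower. Capitals mark ACGTG and GCGTG on either strand, so that they also read CACGT or CACGC. Sequences and coordinates are those of RefSeq on assembly GRCr8, 5′ to 3′ on the strand of the gene.
Ddit4: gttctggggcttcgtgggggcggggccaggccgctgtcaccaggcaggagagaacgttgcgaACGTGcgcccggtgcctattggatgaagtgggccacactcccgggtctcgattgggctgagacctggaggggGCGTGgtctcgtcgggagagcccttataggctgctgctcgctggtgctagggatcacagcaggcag
Slc2a1: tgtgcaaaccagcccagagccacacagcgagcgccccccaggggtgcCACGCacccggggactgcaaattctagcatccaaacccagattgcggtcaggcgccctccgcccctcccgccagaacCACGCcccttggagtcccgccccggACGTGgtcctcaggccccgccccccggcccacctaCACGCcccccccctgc
P4ha1: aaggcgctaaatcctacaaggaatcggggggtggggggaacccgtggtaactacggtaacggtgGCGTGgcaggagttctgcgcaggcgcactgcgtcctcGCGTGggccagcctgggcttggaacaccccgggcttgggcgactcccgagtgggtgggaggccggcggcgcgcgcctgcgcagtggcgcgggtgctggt
Jag1: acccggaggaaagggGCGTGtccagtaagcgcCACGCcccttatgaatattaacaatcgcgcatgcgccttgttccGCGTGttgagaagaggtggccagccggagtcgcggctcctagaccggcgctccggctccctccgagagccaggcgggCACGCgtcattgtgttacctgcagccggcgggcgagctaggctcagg
The stretches lie at chr20:28437038-28437237 (Ddit4, minus strand), chr5:138002322-138002521 (Slc2a1, plus strand), chr20:27844846-27845045 (P4ha1, plus strand) and chr3:144894884-144895083 (Jag1, minus strand). Ddit4 held 2 matches, Slc2a1 held 4, P4ha1 held 2 and Jag1 held 4. All the printed stretches hold matches, which is not so for every strong rise: Vegfa, Apln and Kdm3a held 0 in the 250 bases before the start. In the 250 bases before the start, either strand, ACGTG or GCGTG stood in 84 of the 123 higher genes with a promoter in the table (68.3%), in 67 of 108 lower genes (62.0%) and in 4986 of all 8636 measured genes (57.7%). ACGTG alone stood in 33.3% of the higher genes, 18.5% of the lower genes and 22.7% of all. For TGACGTCA, the palindromic site of the factor CREB, which holds neither of these motifs, the shares were 4.88%, 7.41% and 3.11%. A match is a description of the letters and not evidence of binding.

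Most arrays were alike in their overall level. The array medians on the log2 scale were 5.73 to 5.75 for preconditioned arrays 1 to 4 and 5.74 to 5.82 for the 5 sham arrays, while preconditioned array 5 stood apart at 5.59. That array also had the lowest estimated quality weight of the 10, 0.343, where the others had 0.854 to 1.47. As a check of RNA integrity, the 3′ over 5′ signal of the control genes was 1.69 to 1.82 in preconditioned and 1.51 to 1.90 in sham arrays for actin, and 0.915 to 0.996 against 0.927 to 0.987 for GAPDH. Of the 24 cortical neuron markers measured, 0 passed the test, which is close to the 2.8% of all genes that passed. Their mean log2 level lay between 8.70 and 8.82 in preconditioned arrays and between 8.63 and 8.77 in sham arrays. The number of arrays limits the precision of everything that follows, and results that rest on preconditioned array 5 are given with and without it.

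With limma on log2 intensities and a threshold of 0.05 on the Benjamini-Hochberg adjusted p, 445 of 18625 probe sets differed between preconditioned and sham arrays (2.39%). Of these, 230 were higher (1.23%) and 215 were lower (1.15%). At an unadjusted p under the same threshold, 3100 probe sets differed (16.6%). By gene, taking the brightest probe set of each, 153 of 10304 genes rose (1.48%) and 135 fell (1.31%). The 5 preconditioned arrays all exceeded the 5 sham arrays for 372 probe sets (2.0%), and were all below them for 425 (2.28%). Among the called probe sets this separation held for 183 of the 230 rises and 137 of the 215 falls. When the 10 arrays were fitted alone, 161 probe sets were called, 123 higher and 38 lower.

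Rises and falls were similar in number and in typical size, but the rises had the larger extremes. The median difference, preconditioned minus sham on the log2 scale, was 0.43 among the called rises and -0.41 among the called falls. A difference of 1 or more in size, a doubling or a halving, was reached by 23 called rises and by 0 called falls. The called rises had a median intensity of 216.9 over all arrays and the called falls 138.8, against 141.5 over all probe sets kept. Over all 10304 genes, 5915 had a negative difference (57.4%) and 4389 a positive one (42.6%), with a median of -0.03. This small excess of negative differences in the table as deposited was largest in preconditioned array 5. Over all kept probe sets, the median deviation from the sham mean was -0.07 in that array. In preconditioned arrays 1 to 4 it was -0.013, -0.016, -0.01 and -0.013.

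The response to low oxygen was the list with the most called genes. Of 39 measured members of a list of HIF targets and glycolytic enzymes, 25 rose and 0 fell, with a median difference of 0.41, against 2.8% of all genes called in either direction and a median of -0.03. Slc2a1, which encodes the glucose transporter GLUT1 of the blood-brain barrier, had intensities of 542, 551, 523, 629 and 615 in the preconditioned arrays, against 189, 199, 217, 198 and 238 in the sham arrays. The lowest preconditioned array stood far above the highest sham array, and the difference was 1.46 ± 0.08 on the log2 scale (SE of the limma fit, n = 5 per group, adjusted p = 2e-17). Slc2a3, the neuronal glucose transporter, rose by 0.47, and Ldha, which turns pyruvate into lactate, by 0.60. Pdk1, a kinase that inhibits pyruvate dehydrogenase, rose by 0.48.

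Ddit4, an inhibitor of the growth kinase complex mTORC1, had the smallest adjusted p of all named genes. Its intensities were 1151, 1158, 981, 1002 and 972 in preconditioned arrays and 374, 394, 311, 311 and 404 in sham arrays, a 2.94-fold difference (1.56 ± 0.08 on the log2 scale, limma adjusted p = 4.2e-18). Kdm3a, a histone demethylase, lay between 283 and 312 in preconditioned and between 111 and 133 in sham arrays (1.31 ± 0.09, adjusted p = 4.2e-14). Both groups were narrow for this gene, and the gap between them was wider than either. Ak4, a mitochondrial adenylate kinase, was 131 to 237 in preconditioned and 70.7 to 84.6 in sham arrays (1.17 ± 0.13, adjusted p = 1.1e-07).

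Further enzymes and regulators of the same list rose. Pfkfb3, which makes an activator of phosphofructokinase, rose by 0.99 ± 0.16, Gys1, the glycogen synthase of muscle and brain, by 0.97 ± 0.16, and P4ha1, a collagen prolyl hydroxylase, by 0.95 ± 0.12 (limma adjusted p = 0.00012, 0.00021 and 6.1e-07). The repressor gene Bhlhe40 rose by 1.14 ± 0.19 (adjusted p = 0.00016). Egln1, a prolyl hydroxylase that marks HIF-1α, was 239.6 to 312 in preconditioned and 202 to 245 in sham arrays (0.37 ± 0.08, adjusted p = 0.0057). Its groups overlapped, because preconditioned array 4 lay below sham array 2. Egln3, its relative, rose by 0.51. Hmox1, the haem-degrading enzyme, was 40.7 to 51.7 in preconditioned and 14.9 to 38.3 in sham arrays (0.87 ± 0.23, adjusted p = 0.027), but its call was lost in 6 of the 10 fits that left out 1 array, with adjusted p up to 0.096.

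Of the 39 differences 37 were positive (35 with quantile normalisation), and the mean log2 level of the list was 8.96 to 9.10 in preconditioned arrays and 8.44 to 8.58 in sham arrays. The other 14 members did not pass the test. Hif1a, the gene for the regulated subunit and no member of the list, was 1079 to 1164 in preconditioned arrays and 944.5 to 1193 in sham arrays (-0.02 ± 0.07, limma adjusted p = 0.91), with the lowest value in sham array 5. Glycolytic genes that did not pass the test included Pgk1 (0.10), Hk1 (0.04), Eno2 (0.04), Aldoa (0.21) and Pfkl (0.29). Tfrc, the transferrin receptor, had the lowest difference of the list at -0.26 (adjusted p = 0.13).

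Several genes of vessel growth and clot dissolution rose, though the angiogenesis list was mixed. Of its 26 measured members 7 rose, 1 fell and 18 did not pass, with a median of 0.11. Among all genes 1.48% rose and 1.31% fell, with a median of -0.03. Vegfa, the main endothelial growth factor, had intensities of 556, 535, 599, 548 and 449.6 in preconditioned arrays, against 201, 211, 175, 230.2 and 185 in sham arrays. This was a 2.68-fold difference (1.42 ± 0.08, limma adjusted p = 4e-16), and a second probe set of the gene was called with a difference of 1.22. Angpt2, a ligand of the endothelial receptor Tie2 that loosens vessels, was 107 to 131 in preconditioned and 26.9 to 61.7 in sham arrays (1.41 ± 0.18, adjusted p = 1.8e-06).

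Apln, which encodes the peptide apelin, was 228 to 305 in preconditioned and 78.8 to 141 in sham arrays (1.33 ± 0.12, limma adjusted p = 6.6e-11). Plat, the tissue plasminogen activator, was 508 to 609 against 227 to 279 (1.14 ± 0.09, adjusted p = 3.2e-12). Receptor genes for VEGF rose too. Flt1 was 58.8 to 131 in preconditioned and 30.0 to 49.0 in sham arrays (1.16 ± 0.23, adjusted p = 0.0024), while Kdr, the main signalling receptor, was 304 to 399 against 222 to 293 (0.40 ± 0.08, adjusted p = 0.0041). Vegfc, a ligand best known from lymphatic growth, was the member that fell: it was 42.2 to 54.3 in preconditioned and 61.3 to 86.4 in sham arrays (-0.58 ± 0.14, adjusted p = 0.014). Without sham array 3 the adjusted p of Vegfc was 0.056.

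Immediate early genes, which respond within minutes to activity or stress, held the largest single rise. Fos, a subunit of the factor AP-1, had intensities of 209.5, 269, 236, 219 and 105 in preconditioned arrays and 36.6, 37.1, 24.5, 33.3 and 31.8 in sham arrays (2.62 ± 0.26, limma adjusted p = 2.4e-09). Preconditioned array 5 was the lowest of its group and still far above the highest sham array. Egr1, another inducible factor, was 496 to 694 in preconditioned and 227 to 278 in sham arrays (1.21 ± 0.16, adjusted p = 2e-06). Zfp36, which promotes the decay of inducible mRNAs, rose by 1.11 ± 0.19, and Ccn2, a matrix-associated growth factor, by 0.85 ± 0.12 (adjusted p = 0.00023 and 1.3e-05). Of 27 measured genes on this list 7 rose and 0 fell, against 1.48% of all genes called higher. Their median was 0.22, against -0.03 over all genes. Bdnf, a neurotrophin that neuronal activity induces, was 20.2 to 49.9 in preconditioned and 22.3 to 54.4 in sham arrays and did not pass (-0.17 ± 0.21, adjusted p = 0.74).

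Rises were also found among genes known to respond to glucocorticoids and to FOXO factors. Of 15 measured glucocorticoid-response genes 4 rose and 0 fell, and 14 of 15 differences were positive, with a median of 0.47. Of all genes tested 1.48% were called higher. The count depended on the scaling: 8 of these genes were called higher under median centring, under quantile normalisation and when centred over the kept probe sets, and the block by sample number over all arrays gave 6. Cebpd, a transcription factor gene, was 74.6 to 100.1 in preconditioned and 29.6 to 43.4 in sham arrays (1.27 ± 0.19, limma adjusted p = 3.3e-05). Sgk1, a kinase of ion transport, rose by 0.62 ± 0.08, Errfi1, an inhibitor of EGF receptor signalling, by 0.61 ± 0.09, and Klf9, a zinc-finger factor, by 0.63 ± 0.12.

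Of 17 measured FOXO targets and mTOR inhibitors 4 rose and 0 fell, against 1.48% of all genes called higher. Depp1, a FOXO target, was second in size only to Fos among named genes, with intensities of 169, 137, 223, 200.3 and 133 in preconditioned arrays and 35.5, 31.6, 53.9, 32.8 and 50.4 in sham arrays (2.08 ± 0.21, limma adjusted p = 2.9e-09). Foxo3 itself rose by 0.54 ± 0.08 and Bcl6, a transcriptional repressor, by 0.43 ± 0.10 (adjusted p = 2.3e-05 and 0.013). Preconditioned values of Bcl6 were close together at 185 to 199, all above sham values of 132 to 149.

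Several rises belonged to no large group. The adaptor gene Sh2b3, which restrains cytokine receptor signalling, was 165 to 208 in preconditioned and 89.3 to 132 in sham arrays (0.88 ± 0.09, limma adjusted p = 2.4e-08). Bcl6b, a repressor related to Bcl6, rose by 0.99 ± 0.18, and Shc4, a receptor adaptor, by 0.94 ± 0.17 (adjusted p = 0.00078 and 0.00071). Lsr, a component of tricellular junctions, rose by 0.55 ± 0.12 (adjusted p = 0.0062). Pdgfra, the receptor of oligodendrocyte precursors, was 752 to 932 in preconditioned and 642 to 667 in sham arrays (0.34 ± 0.08, adjusted p = 0.01). Bmp6, a secreted ligand, rose by 0.37 ± 0.09 and Id1, a target of such ligands, by 0.33 ± 0.09 (adjusted p = 0.014 and 0.028).

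Some of the smaller rises lost their call when 1 array was left out. Id1 lost its call in 6 of the 10 fits without 1 array (adjusted p up to 0.10), Pecam1 and Prox1 in 7 each (up to 0.088 and 0.17) and Vwf in 4 (up to 0.11). Gria2, an AMPA receptor subunit that rose by 0.34 ± 0.08, lost it without preconditioned array 5 (adjusted p = 0.059) and without sham array 5 (adjusted p = 0.062). In all, 32 of the 38 named rises kept their call in each of the 10 fits.

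**Figure D1:**
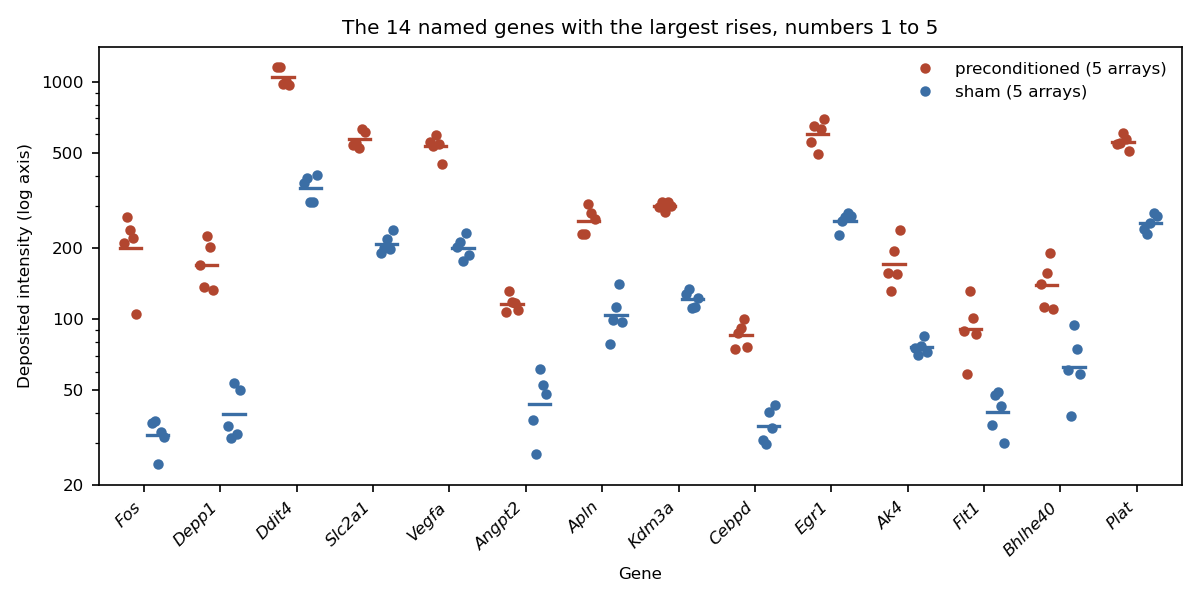
Deposited intensities on a log axis for the 14 named genes with the largest rises, preconditioned arrays left of sham arrays, 1 point per array and a bar at the geometric mean of the 5. The 2 groups do not overlap for any of these genes, and Fos has its lowest preconditioned point at 105.

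Slco1c1, the thyroid hormone transporter OATP1C1 of brain endothelium and astrocytes, had the smallest adjusted p among named falls. Its intensities were 469.8, 446, 482, 469 and 524 in preconditioned arrays, against 704, 744, 701, 723 and 690.0 in sham arrays (-0.58 ± 0.06, limma adjusted p = 2.7e-08). The highest preconditioned array stood well below the lowest sham array. Slc40a1, which encodes ferroportin, the iron exporter of cells, was 67.1, 53.3, 72.5, 66.3 and 66.5 in preconditioned arrays and 119, 116, 130.4, 141 and 117 in sham arrays, a fall to 0.52 of the sham level (-0.94 ± 0.12, adjusted p = 2e-06). A second probe set of Slc40a1 was called with a difference of -0.88.

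The zinc importer genes Slc39a10 and Slc39a8 also fell, whereas Slc39a1 (0.03, limma adjusted p = 0.91) and Slc39a14 (0.29, 0.37) did not pass. Slc39a10 was 657 to 750.4 in preconditioned and 778 to 891 in sham arrays (-0.27 ± 0.07, limma adjusted p = 0.018). It lost its call without preconditioned array 5 (adjusted p = 0.062), without sham array 5 (0.055) and when each array was centred on its median (0.11). Slc39a8 overlapped between the groups, at 45.8 to 77.0 in preconditioned and 76.8 to 99.2 in sham arrays (-0.51 ± 0.14, adjusted p = 0.035), and lost its call in 6 of the 10 fits without 1 array (adjusted p up to 0.15). Of 24 measured blood-brain barrier genes 3 fell and 1 rose, with a median of -0.03, which was also the median over all genes. Among all genes 1.31% fell and 1.48% rose. Other transporters of this barrier did not pass, among them Abcb1a (-0.49, adjusted p = 0.33), Slco1a4 (-0.22) and Mfsd2a (-0.04), and neither did the junction genes Cldn5 (0.11) and Ocln (-0.27).

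Jag1, a membrane-bound Notch ligand, was 42.9, 68.7, 46.8, 52.8 and 45.3 in preconditioned arrays and 116, 86.6, 108, 108 and 62.2 in sham arrays (-0.89 ± 0.17, limma adjusted p = 0.0018). The groups overlapped in 1 place, where preconditioned array 2 lay above sham array 5. It was the only called member of 14 measured Notch genes, where 2.8% of all genes were called. Hes1 and Hes5, transcriptional targets of the pathway, had differences of 0.50 and -0.37 and did not pass (adjusted p = 0.083 and 0.30). Under median centring 1 Notch gene was called higher besides the fall of Jag1.

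Higd1b, which marks pericytes, was 32.1 to 43.8 in preconditioned and 51.7 to 77.0 in sham arrays (-0.65 ± 0.14, limma adjusted p = 0.0079). It was the only called gene of 11 measured pericyte and smooth muscle markers, where 2.8% of all genes were called. Pdgfrb (0.12), Rgs5 (-0.14) and Abcc9 (-0.07) did not pass. The median of this list was -0.14, with 7 of 11 differences negative. Cyyr1, a small membrane protein gene, was 27.1 to 36.8 in preconditioned arrays, against 69.7, 29.4, 80.4, 82.1 and 55.5 in sham arrays (-0.92 ± 0.20, adjusted p = 0.0077). Sham array 2 was the exception, inside the preconditioned range.

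Further falls included 2 serpin genes. Serpinb6b, an intracellular serpin, was 25.6, 19.9, 23.5, 29.2 and 40.4 in preconditioned arrays and 45.7, 48.3, 66.6, 53.4 and 47.5 in sham arrays (-0.94 ± 0.16, limma adjusted p = 0.00029). Serpinb9, whose product blocks granzyme B, was 50.0 to 93.5 in preconditioned and 101 to 138 in sham arrays (-0.70 ± 0.14, adjusted p = 0.0034), with a called second probe set at -0.53. In both serpins the highest preconditioned value was that of array 5, so the falls were larger without it, at -1.09 and -0.82.

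Ctla2a, an inhibitor of cysteine proteases in the mouse, was 28.5 to 42.6 in preconditioned and 36.5 to 61.9 in sham arrays (-0.65 ± 0.14, limma adjusted p = 0.0041), and the groups overlapped at preconditioned array 3. Apol3l1, of the apolipoprotein L family, had the largest fall of all named genes: it was 24.5 to 49.8 in preconditioned and 56.0 to 77.7 in sham arrays (-0.99 ± 0.18, adjusted p = 0.00045). Ly96, the MD-2 partner of the receptor TLR4, was 15.8 to 30.8 against 34.2 to 44.8 (-0.70 ± 0.19, adjusted p = 0.030). The Ly96 values were near the floor of 16, and its call was lost in 5 of the 10 fits without 1 array (adjusted p up to 0.11) and under median centring (0.066).

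Etv4, Sp4, Taf9b and Ing3 were also among the named falls. Etv4, an ETS factor downstream of growth factor receptors, was 40.6 to 70.5 in preconditioned and 76.6 to 84.3 in sham arrays (-0.62 ± 0.15, limma adjusted p = 0.018), although without preconditioned array 1 its adjusted p was 0.063. The neuronal factor Sp4 was 73.2, 69.6, 68.2, 49.4 and 34.9 in preconditioned arrays and 89.2 to 100.5 in sham arrays (-0.73 ± 0.17, adjusted p = 0.01). Preconditioned array 5 gave the lowest value, and without it the difference was -0.55 with an adjusted p of 0.064. Taf9b, a subunit of the general factor TFIID, showed the same array even more plainly, with 33.0 in array 5 against 65.1 to 77.4 in the other preconditioned arrays and 78.6 to 114 in sham arrays. Its difference of -0.71 ± 0.18 became -0.50 without that array (adjusted p = 0.019 with it and 0.12 without), and the call was also lost without sham array 3 (0.058) and sham array 5 (0.057). Ing3, a subunit of a histone acetyltransferase complex, was 55.1 to 95.9 in preconditioned and 99.8 to 123 in sham arrays (-0.60 ± 0.15, adjusted p = 0.024) and lost its call in 5 of the 10 fits (up to 0.085).

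Most genes of the cell cycle and of DNA replication had small negative differences. Of 47 measured members 3 fell and 0 rose, 42 of 47 differences were negative and the median was -0.18. Among all genes 1.31% fell, 57.4% had a negative difference and the median was -0.03. Ccnd1, the cyclin of the G1 phase, was 118, 139.9, 139.7, 122 and 112 in preconditioned arrays and 191, 195, 189, 186 and 152 in sham arrays (-0.53 ± 0.11, limma adjusted p = 0.0035). The groups did not overlap, the lowest sham value was in array 5, and the other 2 kept probe sets of Ccnd1, which did not pass, had differences of -0.34 and -0.62. Mcm6, a subunit of the replicative helicase, was 111 to 159 in preconditioned and 170.0 to 211 in sham arrays (-0.46 ± 0.12, adjusted p = 0.028), and Spc25, of the kinetochore, was 90.3 to 121 against 122 to 137 (-0.38 ± 0.11, adjusted p = 0.042).

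Only Ccnd1 of these 3 kept its call without each array in turn. Mcm6 lost it in 5 of the 10 fits (adjusted p up to 0.12) and Spc25 in 9 (up to 0.12). The mean log2 level of the whole cell cycle list was 6.49 to 6.64 in preconditioned arrays and 6.68 to 6.82 in sham arrays, and array 1 was the highest of both groups. Centring each array on its median left 38 of 47 differences negative, with a median of -0.11.

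The remaining named falls were of varied function. Tmem230, of secretory vesicles, was 254 to 342 in preconditioned and 373 to 434 in sham arrays (-0.50 ± 0.08, limma adjusted p = 2.8e-05). Pacrgl was 66.4 to 93.3 against 118 to 141 (-0.58 ± 0.09, adjusted p = 0.00013), and Cbln2, a synaptic organiser, 103 to 113 against 128 to 172 (-0.44 ± 0.08, adjusted p = 0.00044). The groups did not overlap for any of these 3 genes.

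Smn1, needed for assembly of the splicing machinery, was 133 to 179.8 in preconditioned and 192 to 220.4 in sham arrays (-0.41 ± 0.08, limma adjusted p = 0.00085). Cobll1 was 29.9 to 56.9 against 64.5 to 90.3 (-0.84 ± 0.15, adjusted p = 0.00045), and Ttc4, a partner of the chaperone HSP90, was 44.7 to 50.1 against 61.4 to 81.0 (-0.59 ± 0.11, adjusted p = 0.0014). Mapk1ip1 fell by 0.50 and the small GTPase gene Rap2b fell by 0.58, both separated between the groups. C13h1orf115, Ubxn8, Heatr6 and Wdsub1 also passed, but lost their calls in 4, 6, 4 and 4 of the 10 fits without 1 array (adjusted p up to 0.068, 0.15, 0.091 and 0.15). In all, 18 of the 32 named falls kept their call in each of these fits, against 32 of the 38 named rises.

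**Figure D2:**
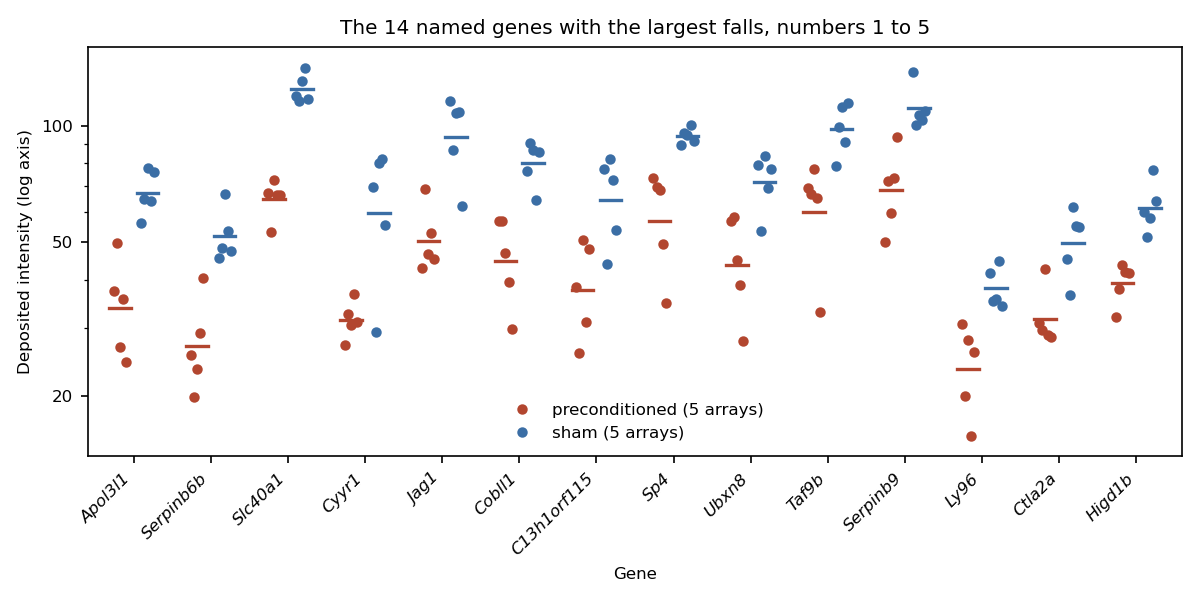
Deposited intensities on a log axis for the 14 named genes with the largest falls, preconditioned arrays left of sham arrays, 1 point per array and a bar at the geometric mean of the 5. Slc40a1 is separated by a wide gap, Cyyr1 has 1 sham array at 29.4 among the preconditioned ones, and Taf9b has 1 preconditioned array at 33.0 far below the rest.

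Outside the endothelial list, few marker genes of single cell types were called. Of 22 endothelial markers 4 rose and 1 fell (22.7% called, against 2.8% of all genes), and the median was -0.03. The called ones included the VEGF receptors Flt1 and Kdr and the transporter Slco1c1 described above. Without preconditioned array 5, 2 endothelial markers were called higher and 1 lower. Pecam1, an adhesion molecule of endothelium, rose by 0.53 ± 0.14 and Vwf, a clotting protein that it stores, by 0.49 ± 0.13 (limma adjusted p = 0.031 and 0.028), while Tie1 (-0.20) and Tek (-0.32) did not pass. Of 20 astrocyte markers and 13 microglial markers 0 passed, with medians of 0.10 and 0.01. In the paired fit over all arrays 3 astrocyte markers and 1 microglial marker were called higher, and in the paired fit within numbers 1 to 5, 1 astrocyte marker. Under median centring and quantile normalisation 1 microglial marker was called higher.

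Prox1, the 1 called gene among 12 markers of other brain regions, overlapped between the groups at 147 to 182 in preconditioned and 108 to 152 in sham arrays (0.33 ± 0.09, limma adjusted p = 0.049). The other 11 of those markers did not pass, and the list had a median of 0.08. Choroid plexus, meningeal and erythroid lists had 0 called genes of 9, 13 and 4 measured. With 2.8% of all genes called, counts of 0 or 1 in lists this short are close to the share over all genes.

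Ribosomal protein genes showed a uniform shift that passed the test for none of them. All 15 measured members had a positive difference, between 0.12 and 0.29, with a median of 0.21. Their mean log2 level was 12.06, 11.92, 11.96, 12.02 and 12.45 in preconditioned arrays and 11.84, 12.01, 11.89, 11.79 and 11.86 in sham arrays. Preconditioned array 5, the array with the low overall median, was the highest, and sham array 2 lay above preconditioned arrays 2 and 3. Without array 5 the median difference of the list was 0.12, and under quantile normalization it was 0.01 with 4 of the 15 differences negative. What the position of array 5 contributed was not tested further.

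**Figure D3:**
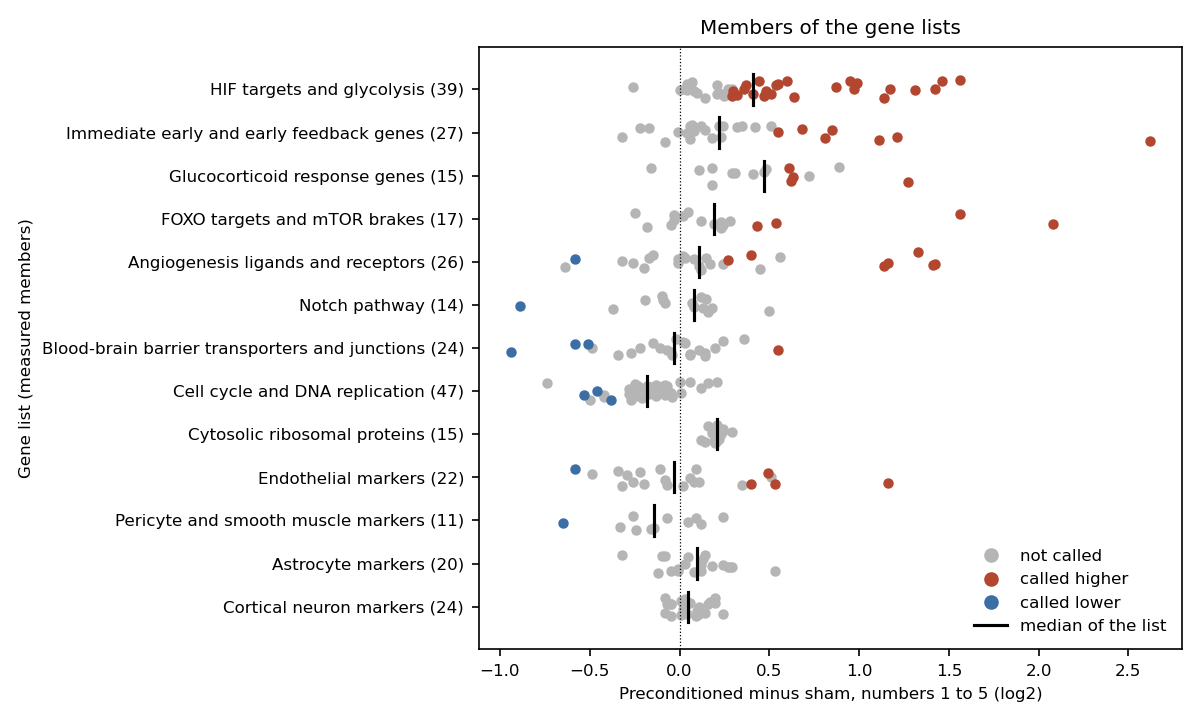
Preconditioned minus sham differences on the log2 scale for the measured members of 13 gene lists, with called members in colour and a black bar at each list's median. The HIF and glycolysis list has its median at 0.41, the cell cycle list at -0.18 and the pericyte and smooth muscle list at -0.14. The endothelial, astrocyte and cortical neuron lists have medians of -0.03, 0.10 and 0.05.

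Fewer of the falls than of the rises remained called when the scaling or the arrays were changed. When each array was centred on its median, 226 of the 230 rises (98.3%) but 85 of the 215 falls (39.5%) remained called, and 347 probe sets were called higher and 85 lower in all. Quantile normalization kept 90.4% of the rises and 62.3% of the falls. These scalings moved the median difference of all kept probe sets by 0.04 to 0.07 on the log2 scale. For the calls with a difference under 0.5 in size, 142 of the rises and 153 of the falls, such a shift is a sizeable part of the difference.

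Leaving out preconditioned array 5 kept 155 rises (67.4%) and 80 falls (37.2%). The called falls had a median deviation from the sham mean of -0.35, -0.37, -0.37 and -0.35 in preconditioned arrays 1 to 4 and of -0.53 in array 5, whereas the called rises were at 0.41 to 0.48 in all 5. Leaving out sham array 3 kept 155 rises (67.4%) and 101 falls (47.0%), and leaving out sham array 4 kept 156 rises (67.8%) and 114 falls (53.0%). A stricter set was therefore formed after these values had been seen, of genes called under the deposited scale, under both ways of median centring and quantile normalization, and without preconditioned array 5. It held 100 of the 153 rising genes and 40 of the 135 falling genes. Among the named genes it held 33 of the 38 rises and 21 of the 32 falls (among these falls were Slc40a1, Slco1c1, Jag1, Serpinb6b, Serpinb9, Ccnd1, Vegfc and Etv4).

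**Figure D4:**
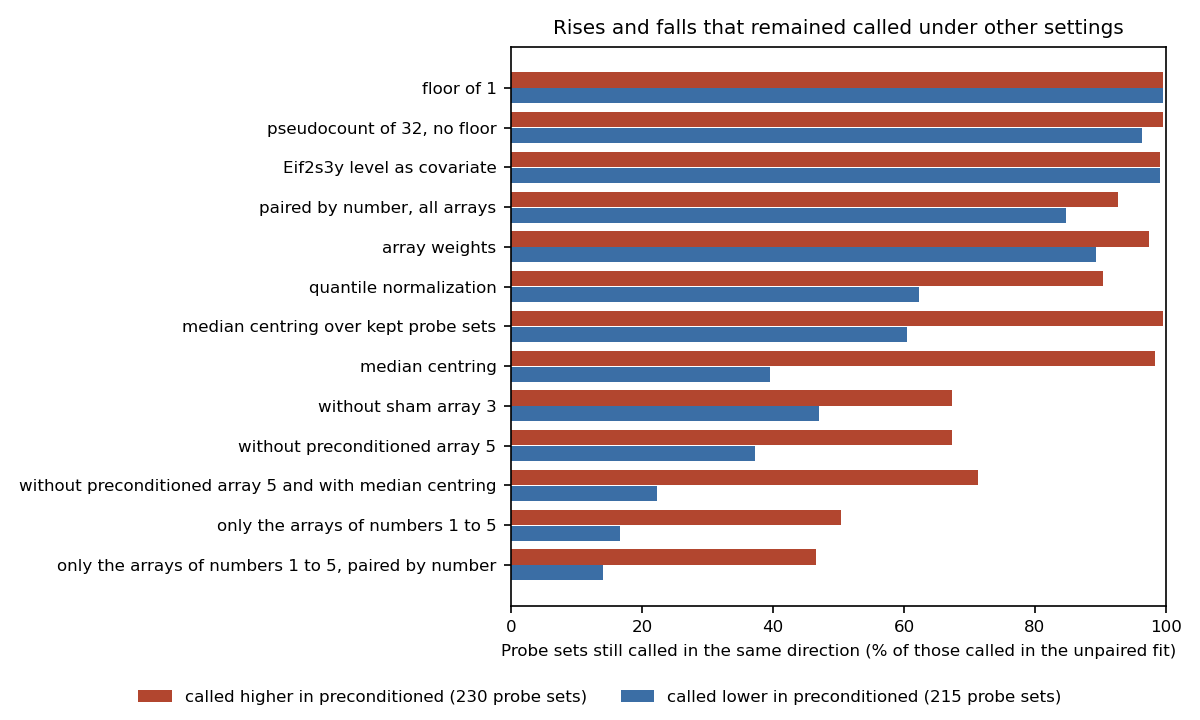
Share of the 230 called rises and 215 called falls that were still called in the same direction under 13 other settings, in percent. The bars of rises and falls are nearly equal for a floor of 1 and the Eif2s3y covariate, and the falls drop to 39.5% under median centring and 14.0% when the 10 arrays were fitted alone and paired.

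Pairing by sample number was examined because both groups carry the same numbers. The deviations of preconditioned and sham arrays from their group means, over all kept probe sets, had correlations of 0.11, 0.19, 0.079, 0.11 and 0.08 for the same number and between -0.139 and 0.101 for the 20 combinations of different numbers. All 5 preconditioned arrays correlated best with the sham array of their own number, and 4 of 5 sham arrays did so. A correlation over 0.1 in each pair, the limit set for treating the numbers as pairs, was reached by 3 of 5. Only 1 single transcript, Eif2s3y of the Y chromosome, was compared by number over the whole series, and it matched throughout. It was high or low in both arrays of a number for all 20 numbers, with 386.7 as the lowest high value and 4.3 as the highest low value. In numbers 1 to 5 it was high in both arrays of numbers 2 and 3. The labels do not say what a number stands for.

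With the sample number as a block in the fit over all 40 arrays, 281 probe sets were higher and 257 lower, against 230 and 215 without pairing. Both fits called 213 of the rises and 182 of the falls, and the paired fit added 68 rises and 75 falls while it lost 17 and 33. When only the 10 arrays of numbers 1 to 5 were fitted, 119 rises and 33 falls were called with the block, against 123 and 38 without it. Both of these fits called 102 rises and 22 falls, and the paired one added 17 and 11 while it lost 21 and 16. Of the calls made over all 40 arrays without pairing, this unpaired fit of 10 arrays repeated 116 rises (50.4%) and 36 falls (16.7%).

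Gfap, the filament protein of reactive astrocytes, shows what pairing changes. It was 446, 487, 679.5, 759 and 689.6 in preconditioned arrays and 293, 371, 477, 438 and 534 in sham arrays, so the groups overlapped. In each of the 5 pairs, however, the preconditioned array was higher, by 0.37 to 0.79 on the log2 scale. Its difference of 0.53 ± 0.19 had a limma adjusted p of 0.12 unpaired, of 0.0006 with the block over all arrays, and of 0.0031 with the block within numbers 1 to 5.

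Other named genes were little altered or lost their call. The differences of Slc2a1 and Slc40a1 had the same sign in all 5 pairs, from 1.27 to 1.67 and from -1.12 to -0.82, and both were called with and without the block in the 10 arrays alone. Ccnd1, at -0.69 to -0.43 in the pairs, was called there too (limma adjusted p = 0.012 paired and 0.013 unpaired). Cyyr1 had 1 pair of opposite sign, and its adjusted p in the 10 arrays was 0.078 paired and 0.087 unpaired. All 5 pairs had the sign of the group difference for 37 of the 38 named rises, the exception being Prox1, and for 30 of the 32 named falls, where Cyyr1 and Ubxn8 were the exceptions. Fitted on the 10 arrays alone, 30 named rises and 11 named falls were called with the block, against 29 and 16 without it.

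**Figure D5:**
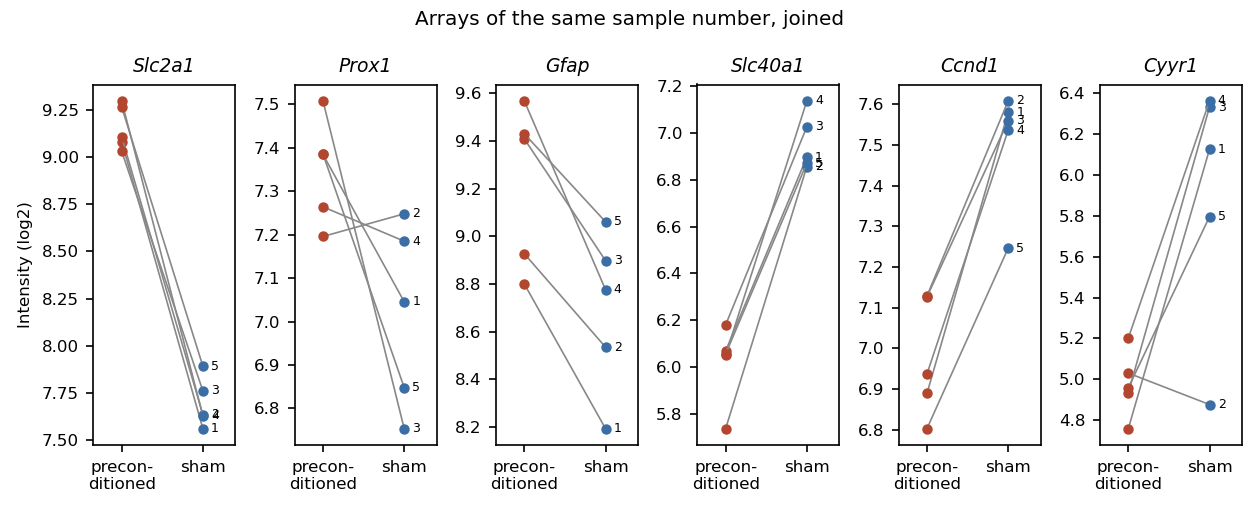
Log2 intensities of 6 genes, preconditioned arrays left and sham arrays right, with arrays of the same sample number joined and numbered at the sham end (each panel has its own axis). All 5 lines run the same way for Slc2a1, Gfap, Slc40a1 and Ccnd1, and 1 line runs against the others for Prox1 and Cyyr1.

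The called genes can also be set beside the other 15 sham arrays of the series, numbers 6 to 20. This is a description only: the same 5 preconditioned arrays chose the genes, which largely fixes the side, and these 15 arrays entered the filter and the estimate of the spread. The sham arrays of numbers 1 to 5 themselves stood slightly off the other sham arrays, by a median of -0.04 in the rising and 0.09 in the falling genes. The median difference from the other sham arrays was 0.41 for the rises and -0.32 for the falls, against 0.41 and -0.38 within numbers 1 to 5. Slc40a1 was 53.3 to 72.5 in the preconditioned arrays, below all 15 other sham arrays at 81.5 to 141, and Slco1c1 was 446 to 524 against 631 to 815.

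Preconditioned and sham arrays of numbers 6 to 10 give values for the same genes in other arrays. Of the 100 rising genes of the stricter set, 89 had a positive difference in that run and 46 were called higher there, against 1.12% of all genes. Of the 40 falling genes, 35 had a negative difference and 10 were called lower, against 1.48%. Their median differences in the runs 1 to 5, 6 to 10, 11 to 15 and 16 to 20 were 0.54, 0.34, 0.00 and 0.00 for the rises and -0.50, -0.20, 0.02 and -0.01 for the falls. The first of these 4 values is the one the genes were chosen on. Both runs share the filter and each gene's estimate of the spread, so the counts called in numbers 6 to 10 are not independent of that choice. The share of all genes with each sign in numbers 6 to 10 is not given here.

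The difference between the 2 runs was itself called for 10 of 18625 probe sets (0.0537%), 8 more positive (0.043%) and 2 more negative (0.0107%) in numbers 1 to 5. Depp1 had differences of 2.08 in numbers 1 to 5 and 0.19 in numbers 6 to 10 (difference between the runs 1.90 ± 0.29, limma adjusted p = 0.00063). Sh2b3 had 0.88 and 0.03 (0.85 ± 0.13, adjusted p = 0.00065). Ddit4, Kdm3a and Vegfa rose in both runs and more in numbers 1 to 5, where the excess was 1.11 ± 0.11, 0.80 ± 0.13 and 0.59 ± 0.12 (adjusted p = 2.1e-08, 0.00065 and 0.026). Txnip, an inhibitor of glucose uptake and thioredoxin, was the named gene with the opposite sign: its difference was -0.25 in numbers 1 to 5, which did not pass (adjusted p = 0.28), and 0.59 in numbers 6 to 10 (difference between the runs -0.85 ± 0.17, adjusted p = 0.026).

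Against the mean difference of the other 3 runs, 66 probe sets were called (0.354%), 47 more positive (0.252%) and 19 more negative (0.102%). Among named falls, Slc40a1 (-0.84, limma adjusted p = 0.00081), Pacrgl (-0.63, 0.0012), Serpinb9 (-0.90, 0.0026), Slco1c1 (-0.39, 0.0026), Tmem230 (-0.42, 0.0079), Mapk1ip1 (-0.46, 0.04), Ing3 (-0.75, 0.04) and Cobll1 (-0.73, 0.041) were lower by more in numbers 1 to 5. In numbers 6 to 10 Slco1c1 was called too, with -0.63, and Serpinb9 had 0.09 and did not pass. A difference between those 2 runs was not called for either gene.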

How the data were processed

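For each array the authors deposited a linear intensity of every probe set. The sources used here name neither the software nor the scaling behind these intensity values. The mean of each of the 40 arrays without its lowest and highest 2% of values was 150.04 to 150.06, so the arrays had been scaled to a common mean. Of 31099 probe sets 57 controls were left out. Intensities under 16 were set to 16, log2 was taken, and 18625 of 31042 probe sets were kept, those with a mean at or above the 40th percentile, which corresponds to an intensity of 31.9.

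One limma fit of 8 group means (4 number runs, preconditioned or sham) was made over all 40 arrays with lmFit and eBayes with a mean trend (limma 3.58.1, R 4.3.3), so all groups share an estimate of the spread. Tests were two-sided and adjusted by Benjamini and Hochberg over all kept probe sets. Differences are log2 values of preconditioned minus sham, given with the fit's standard error, and "called" means an adjusted p under 0.05. Intensities of single arrays are as deposited.

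Names came from the platform annotation, and 20764 of 20832 annotated probe sets with 1 gene matched the RefSeq gene table of GRCr8. The kept probe sets comprised 14273 with 1 gene, 309 with several and 4043 unnamed, and only the first kind was named. The brightest kept probe set stood for a gene. Of the other kept probe sets of called genes, 78 of 100 for rises and 37 of 39 for falls had the same sign, and 0 were called in the opposite direction.

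Named genes were the 20 largest rises and falls among called genes, the 10 smallest adjusted p in each direction, up to 4 called members of each list and direction, up to 8 genes per direction from the test against numbers 6 to 10, and 14 genes taken whatever their result. The members and the 31 gene lists were chosen with earlier results of these data known, so a list's count is a description. The procedure was tested on simulated data. Alternatives covered scaling, floor, pseudocount, filter, array weights, a covariate, pairing by number, the arrays fitted and leaving out each array.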

Additional observations from a re-analysis of the deposited data

Results flagged for a closer look

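In 11 of 150 groups of 5 arrays checked for the named genes, 1 array stood far from the other 4 by Dixon's criterion at the 95% level, which chance flags in about 1 of 20 groups. Preconditioned array 5 was the lowest of its group for Fos (105.4), Taf9b (33.0) and Wdsub1 (39.8). Other preconditioned arrays stood apart for Shc4 (array 1 highest, 92.9), Spc25 (array 1 highest, 120.8), Pecam1 (array 4 lowest, 52.9) and Ctla2a (array 3 highest, 42.6). Sham array 5 was the lowest of its group for Sgk1 (376.8), Ccnd1 (151.8) and Hif1a (944.5), and sham array 1 the highest for Serpinb9 (138.2). All are deposited intensities.

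The difference between preconditioned and sham arrays was itself different in numbers 1 to 5 and numbers 6 to 10 for 6 named genes by limma's contrast of the runs. On the log2 scale, the value in numbers 1 to 5 minus that in numbers 6 to 10 was 1.90 for Depp1, 1.11 for Ddit4, 0.85 for Sh2b3, 0.80 for Kdm3a, 0.59 for Vegfa and -0.85 for Txnip. What separates the runs is not given in the sources used here, and the cause of these differences was not tested.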

How the results depend on the processing

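Counts of called probe sets below give rises and then falls. Median centring gave 347 and 85, and centring over the kept probe sets, chosen after seeing the data, 314 and 130. Without preconditioned arrays 5 and 6 the falls were 137. Fitting only the 10 arrays of numbers 1 to 5 gave 161 calls, 123 and 38. The same arrays with a replicate block by number gave 152 calls, 119 and 33. Other alternatives, also chosen after seeing the data, gave 256 calls with 52 falls (without preconditioned array 5 and with median centring) and 169, with 136 and 33 (the 10 arrays without preconditioned array 5). The block over all 40 arrays gave 281 and 257. Leaving out 1 array at a time gave 268 to 436 calls, 162 to 219 rises and 96 to 220 falls, with the fewest falls without preconditioned array 5 (96), sham array 3 (111) and sham array 4 (125). The test against numbers 6 to 10 called 6 to 12 probe sets in those fits, and the test against the other 3 runs 48 to 64. With array weights the test against the other 3 runs called 104. In the other alternatives the counts of called probe sets over the whole table stayed within 1.5 times of those in the report. Counts within single gene lists moved more in places: the glucocorticoid list had 8 rises under 3 of the scalings, against 4, and the astrocyte markers 3 with the block over all arrays, against 0.

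Of the 75 named genes, Gfap gained its call, in both fits with the block. Signs changed for Hif1a, to 0.05 under median centring and 0.02 when centred over kept probe sets, and for Bdnf, to 0.03 without preconditioned array 3 (-0.38 to 0.03 over the fits without 1 array), and neither gene was called in any of these. The causes of these changes were not tested. As 5 arrays per group limit the precision, small differences of dim probe sets are the least certain, and the correlation of same-numbered arrays is a hint from the data and not from the labels.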

Other observations

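With 2.8% of all genes called, 0 calls in a list of 15 to 31 genes is close to the share over the whole table. Several lists of brain processes held no called gene in numbers 1 to 5, with most of their members measured. These were immature neuron and growth cone genes (31 measured, median difference 0.08), ion channels (21, -0.02), heat shock proteins (16, 0.12), the unfolded protein and amino acid response (27, -0.02), cholesterol and fatty acid synthesis (23, -0.01), oxidative phosphorylation (24, 0.05), circadian clock genes (15, 0.08) and apoptosis regulators (16, -0.01). The inflammation and interferon list had 10 measured of 31 listed members, 0 called and a median of -0.16. Synaptic genes had 1 called of 29, Gria2, with a median of 0.03. Of 27 genes of BMP and TGF-beta signalling 2 rose, Bmp6 and Id1, with a median of 0.05, and of 21 further solute carriers 1 fell, Slc39a10, with a median of 0.03. Oligodendrocyte lineage markers had 1 called of 13, Pdgfra, with a median of -0.03. Mt2A, a metallothionein gene, was 221 to 300.4 in preconditioned and 211 to 252 in sham arrays (0.18 ± 0.14, limma adjusted p = 0.56), whereas in numbers 6 to 10 its difference was 0.84 and called. The contrast of the 2 runs was not called for Mt2A (-0.66 ± 0.20, adjusted p = 0.45).

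Among called probe sets, 53 of the rises and 29 of the falls had no single gene name in the annotation used and are described here only in the counts.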
